A study of Mus musculus with 2 samples.

Results

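The immunity-related GTPases (IRGs) were followed through single-cell RNA sequencing of bone marrow myeloid cells from radiation control (RC) mice and mice with severe aplastic anemia (SAA). Of 9 genes listed by symbol, 8 had a row among the 31053 genes of the deposited matrices. Gm12250 was not analysed here. The measured members comprised 5 effectors (Iigp1, Gm4951, Ifi47, Tgtp1 and Tgtp2) and 3 regulators (Irgm1, Irgm2 and Igtp). All mice were C57BL/6 by BALB/c F1 hybrids. RC mice received 300 rads only. SAA mice received 300 rads and then 65000000 splenocytes of the parental B6 strain. Live CD11b+Ly6C+Ly6G- cells were sorted, and each group gave 1 library from the mixed cells of 3 mice. Without replicates no test between groups was possible, and every interval below covers counting error only.

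IRGs are large GTPases that interferon-γ induces in mouse cells. Effector members load onto the membranes of vacuoles that hold intracellular parasites or bacteria and disrupt them. Regulatory members, known as the IRGM proteins, sit on the cell's own membranes and hold the effectors there in an inactive state. Mouse cells that lack regulatory members accumulate misplaced effectors, and mice without Irgm1 lose lymphocytes during mycobacterial infection. The balance of both arms is therefore a usual question for this family.

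The arms are told apart by 1 residue of the first GTP-binding motif (G1), a lysine in effectors and a methionine in regulators. The coding stretches around it are shown because the grouping used throughout rests on them. They were read from GENCODE M21 transcripts of chromosome 11 (GRCm38), 5′ to 3′, and the capitals mark the codon of that residue.
Irgm1: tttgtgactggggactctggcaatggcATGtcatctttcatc
Irgm2: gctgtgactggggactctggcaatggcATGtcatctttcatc
Igtp: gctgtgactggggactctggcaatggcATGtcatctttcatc
Ifi47: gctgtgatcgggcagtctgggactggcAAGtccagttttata
Tgtp1: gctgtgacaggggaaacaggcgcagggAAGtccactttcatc
Tgtp2: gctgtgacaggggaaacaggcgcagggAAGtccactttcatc
Irgm2 and Igtp were identical over this stretch, as were Tgtp1 and Tgtp2. The capital codon was codon 89 in Irgm1 and Irgm2, codon 97 in Igtp, codon 87 in Ifi47 and codon 69 in Tgtp1 and Tgtp2. In Iigp1 and Gm4951 it was also a lysine, at codons 82 and 81.

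Promoter stretches are shown because members of both arms were higher together in SAA mice. RefSeq promoters (GRCm38.p6) were present for 7 of the 9 listed genes, but not for Iigp1 and Gm4951. The 250 bases before the start were searched on both strands for a pair of motifs. The first, TTCNNNGAA, is known as the interferon-γ activated sequence (GAS). The second, GAAA followed after any 2 bases by GAAA, is bound by interferon regulatory factors (ISRE). Both motifs were present in 5 of the 7 promoters, against 0.332% of 32851 promoters of the same length. The promoters with both were those of Tgtp1, Tgtp2, Igtp, Irgm2 and Gm12250, of which Gm12250 was not measured. The stretches of Igtp and Irgm2 are closely alike, as are those of Tgtp1 and Tgtp2, so these matches are not independent. Capitals mark the motif matches, 5′ to 3′ on the strand of the gene.
Igtp, chr11:58199496-58199546, plus strand: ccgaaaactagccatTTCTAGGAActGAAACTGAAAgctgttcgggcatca
Irgm2, chr11:58214887-58214937, plus strand: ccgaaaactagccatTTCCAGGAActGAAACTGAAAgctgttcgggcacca
Tgtp2, chr11:49064258-49064308, minus strand: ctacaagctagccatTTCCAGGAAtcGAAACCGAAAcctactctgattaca
Irgm1, chr11:48871421-48871465, minus strand: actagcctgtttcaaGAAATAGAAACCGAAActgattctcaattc
In Igtp, Irgm2 and Tgtp2 a GAS and an ISRE match stood next to each other in the same order. Irgm1 held 2 overlapping ISRE matches and no GAS match. Ifi47 held neither motif in this window. Alone, GAS matches occurred in 7.02% and ISRE matches in 2.98% of all promoters. A match of letters is a description of the sequence and not of binding.

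Of the 9 listed genes, 7 lie on chromosome 11 between positions 48861968 and 58222782, and Iigp1 and Gm4951 lie on chromosome 18 between 60212080 and 60392634 (GRCm38). Some members are hard to tell apart by sequence. In Tgtp1, 89.9% of windows of 60 bases also occurred in another gene, mainly Tgtp2, and in Tgtp2 88.4% did so. Their single values are therefore uncertain, and they were counted as 1 unit wherever members were counted per cell. Igtp and Irgm2 share 162 exon bases on the same strand, and 10.6% and 6.00% of their windows were not unique. Tgtp1 overlaps Gm12185 by 223 exon bases and Ifi47 overlaps Olfr56 by 111. In Ifi47 3.15% of windows were shared, and in Iigp1, Gm4951 and Irgm1 at most 2.20%.

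The RC library held 4066589 unique molecular identifiers (UMIs, each standing for 1 captured transcript) over 798 barcodes, and the SAA library 5592265 over 825. Retained were the 662 RC and 729 SAA barcodes with at least 1000 detected genes, and none of them had over 25% mitochondrial UMIs. A single barcode sequence occurred in both libraries. Cells were called monocyte-like when UMIs of 5 monocyte genes (Csf1r, Ccr2, F13a1, Ms4a6c and Ly86) exceeded those of 8 granulocyte genes (Camp, Ngp, Fcnb, Cebpe, Elane, Mpo, Prtn3 and Ctsg), and granulocyte-like in the opposite case. This gave 342 monocyte-like and 318 granulocyte-like cells in RC, and 285 and 421 in SAA. The sums were equal in 2 RC and 23 SAA barcodes, which were in neither class. The scores lay less than 4 times apart in 24 monocyte-like cells of RC and 67 of SAA, and in 7 and 15 granulocyte-like cells. Median depth was 3347.5 UMIs in RC and 6082 in SAA monocyte-like cells, and 6787.5 and 6849 in granulocyte-like cells. Levels are UMIs of a gene per 1000000 UMIs (CPM), taken from the sum over all cells of a class in a library. CPM were not divided by transcript length, so levels are compared between libraries and classes and not between genes.

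In monocyte-like cells every measured IRG was higher in SAA than in RC mice, and the effectors as a sum differed far more than the regulators. The effector sum was 29.4 CPM (95% interval 21.04 to 40.1, 40 UMIs) in RC and 1375 CPM (1324 to 1427, 2789 UMIs) in SAA, a ratio of 46.7 (34.2 to 65.5). The regulatory sum was 56.7 CPM (44.7 to 70.8, 77 UMIs) in RC and 489.1 CPM (459.1 to 520.5, 992 UMIs) in SAA, a ratio of 8.63 (6.84 to 11.03). The intervals of the ratios did not overlap.

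Among the effectors, Iigp1, which encodes Irga6, a GTPase that coats parasite vacuoles, had 0 UMIs in RC monocyte-like cells. It had 1600 UMIs in SAA, or 788.8 CPM (750.7 to 828.5), at least 357-fold higher against a floor of 3 UMIs in the RC sum and 290-fold by the lower limit of the exact interval. In RC, 0 of 342 cells had a UMI of Iigp1, which allows a share of cells with a UMI of up to 0.877% by the floor of 3 and 1.07% by the exact interval, whereas 257 of 285 SAA cells (90.2%) had one. Iigp1 thus went from undetected to present in most cells of this class. Gm4951, a less studied relative on the same chromosome, had 1 UMI in RC and 365 in SAA (180.0 CPM, 162.0 to 199.4). With a single RC count its ratio of 244 has an interval of 43.6 to 9681. Ifi47, which encodes Irgd, was the effector already measurable in RC. Its level was 26.5 CPM (18.6 to 36.7) in RC and 340.7 CPM (315.7 to 367.1) in SAA, a ratio of 12.9 (9.19 to 18.5). Tgtp1 and Tgtp2 encode Irgb6, one of the first GTPases to reach a parasite vacuole. Together they had 3 UMIs in RC and 133 in SAA, a ratio of 29.7 (9.94 to 145.8). Apart from Ifi47, the effectors had at most 2 UMIs each in RC.

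The regulators were all detected in RC monocyte-like cells. Irgm1, which is found on the Golgi, lysosomes and mitochondria, was at 37.5 CPM (28.0 to 49.4, 51 UMIs) in RC and 228.8 CPM (208.4 to 250.6, 464 UMIs) in SAA. Its ratio of 6.09 (4.56 to 8.30) was the lowest point value among the members in this class. Irgm2, found mainly on the Golgi, had 13 UMIs in RC and 141 in SAA, a ratio of 7.26 (4.11 to 14.0). Igtp (Irgm3), a member of the endoplasmic reticulum and lipid droplets, had 13 and 387 UMIs, a ratio of 19.9 (11.5 to 37.8). The regulators therefore differed among themselves, with Igtp above Irgm1 beyond both intervals and overlapping the interval of Ifi47.

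**Figure D1:**
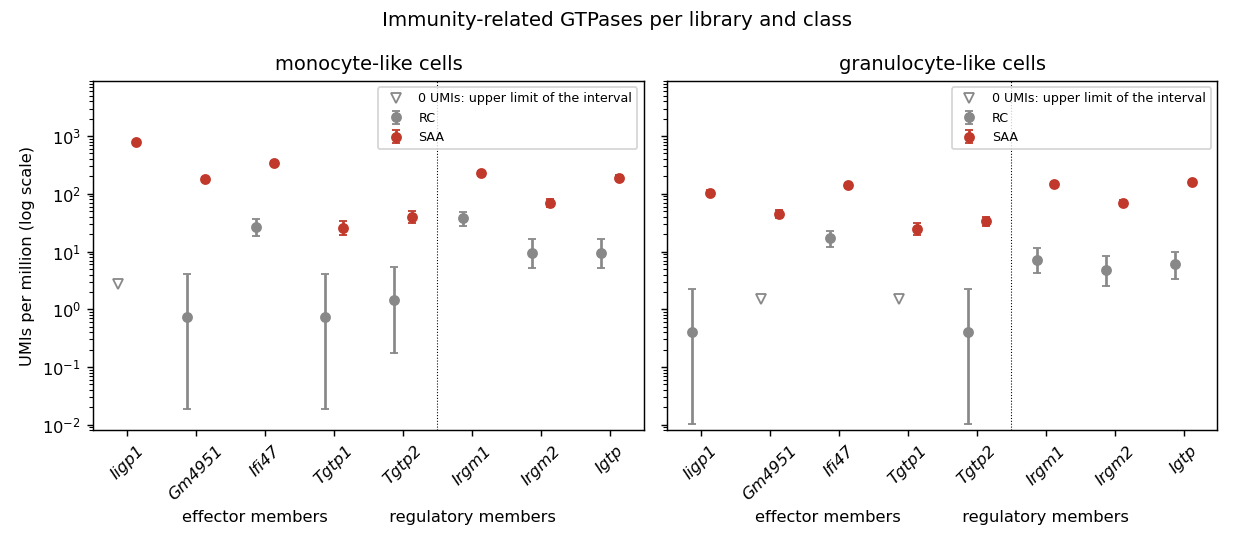
CPM of each member (log axis) in RC (grey) and SAA (red) libraries, in monocyte-like cells on the left and granulocyte-like cells on the right. Points are single libraries, bars are exact Poisson 95% intervals, and open triangles give the upper limit for members with 0 UMIs. In both classes each SAA point lies above the RC value of the same member, for example 340.7 against 26.5 CPM for Ifi47 in monocyte-like cells.

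In granulocyte-like cells both arms were higher in SAA by about the same factor. The effector sum was 17.7 CPM (12.9 to 23.8, 44 UMIs) in RC and 349.3 CPM (329.4 to 370.0, 1158 UMIs) in SAA, a ratio of 19.7 (14.6 to 27.2). The regulatory sum was 18.1 CPM (13.2 to 24.3, 45 UMIs) in RC and 380.3 CPM (359.6 to 401.9, 1261 UMIs) in SAA, a ratio of 20.96 (15.6 to 28.9). These intervals overlapped almost entirely.

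Single effectors were again nearly absent from RC granulocyte-like cells, with the exception of Ifi47. Iigp1 had 1 UMI in RC and 347 in SAA (104.7 CPM, 93.9 to 116.3), a ratio of 260 with an interval of 46.3 to 10280.3. Gm4951 had 0 and 151 UMIs and was at least 37.6-fold higher against the floor, with an exact lower limit of 30.2. Tgtp1 and Tgtp2 together had 1 UMI in RC and 193 in SAA (58.2 CPM, 50.3 to 67.0). Ifi47 accounted for most effector UMIs of RC, with 16.9 CPM (12.2 to 22.9) there and 140.8 CPM (128.4 to 154.2) in SAA, a ratio of 8.32 (6.06 to 11.7). Among the regulators, Irgm1 was at 7.26 CPM (4.30 to 11.5) in RC and 148.4 CPM (135.6 to 162.1) in SAA, a ratio of 20.4 (12.8 to 34.8). The Irgm1 interval lay above its interval in monocyte-like cells, where the RC level was 37.5 CPM. Irgm2 had 12 and 231 UMIs, a ratio of 14.4 (8.09 to 28.3). Igtp had 15 and 538 UMIs, a ratio of 26.8 (16.1 to 48.3). For Irgm2 and Igtp the intervals of both classes overlapped.

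Large ratios were uncommon among all genes. Over 8662 genes with at least 20 UMIs in monocyte-like cells, 7.8% were at least 2-fold higher in SAA and 1.24% at least 8-fold, with a median log2 ratio of -0.06. All 8 members were past 2-fold and 6 were past 8-fold, the exceptions being Irgm1 and Irgm2. Over 8812 genes in granulocyte-like cells, 6.63% were at least 2-fold and 1.4% at least 8-fold higher, with a median of 0.04. There all 8 members were past both limits. The median log2 ratio of the members was 4.54 in monocyte-like and 4.55 in granulocyte-like cells, with members at 0 UMIs set to the floor.

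The makeup of the IRG transcripts followed the same division. Regulators accounted for 65.8% (56.5 to 74.3) of 117 IRG UMIs in RC monocyte-like cells and for 26.2% (24.8 to 27.7) of 3781 in SAA. In granulocyte-like cells they accounted for 50.6% (39.8 to 61.3) of 89 UMIs in RC and 52.1% (50.1 to 54.1) of 2419 in SAA. Effector UMIs per regulatory UMI were thus 5.41 times (3.62 to 8.20) as many in SAA as in RC monocyte-like cells. In granulocyte-like cells the corresponding factor was 0.939 (0.601 to 1.47), an interval that includes equal change. Between the classes, granulocyte-like cells had 1.88 times (1.03 to 3.44) as many effector per regulatory UMIs as monocyte-like cells in RC and 0.327 times (0.293 to 0.364) in SAA. In RC the point values kept this order in cells thinned to 2600 UMIs, but within counting error. Regulators made up 50.8% (37.9 to 63.6) of IRG UMIs in thinned monocyte-like and 47.6% (25.7 to 70.2) in thinned granulocyte-like cells. The granulocyte-like share rested on 11 effector and 10 regulatory UMIs. Over 20 further draws the shares lay between 54.8% and 62.5% in monocyte-like and between 37.5% and 70.8% in granulocyte-like cells. These ranges overlap, so thinning could not decide the order in RC. In SAA the thinned shares were 27.8% (25.4 to 30.3) and 54.0% (50.3 to 57.6). Over the 20 further draws they lay between 23.7% and 27.1% and between 51.3% and 55.7%. The monocyte-like shares of the first draw, in RC and in SAA, were thus outside the range of the further draws.

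Single members carried much of that shift. In monocyte-like cells Iigp1 went from 0 of the IRG UMIs in RC to 42.3% in SAA, and Gm4951 from 0.855% to 9.65%. Irgm1 went from 43.6% to 12.3% and Ifi47 from 30.8% to 18.3%. Igtp had a share of 11.1% in RC and 10.2% in SAA. Without Iigp1, the effector per regulatory factor of monocyte-like cells was 2.31 (1.54 to 3.50), and that of granulocyte-like cells was 0.673 (0.429 to 1.06). The monocyte-like factor was also smaller when cells were thinned to equal depth. In 1 draw of 2600 UMIs per cell the regulatory share of RC monocyte-like cells was 50.8% (37.9 to 63.6) of few UMIs, 31 effector and 32 regulatory, and the log2 factor was 1.42 in place of 2.44. In the 20 further draws the share lay between 54.8% and 62.5% and the log2 factor between 1.80 and 2.34. In cells of at least 2600 UMIs that were not thinned, the share was 62.4% and the log2 factor 2.23.

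**Figure D2:**
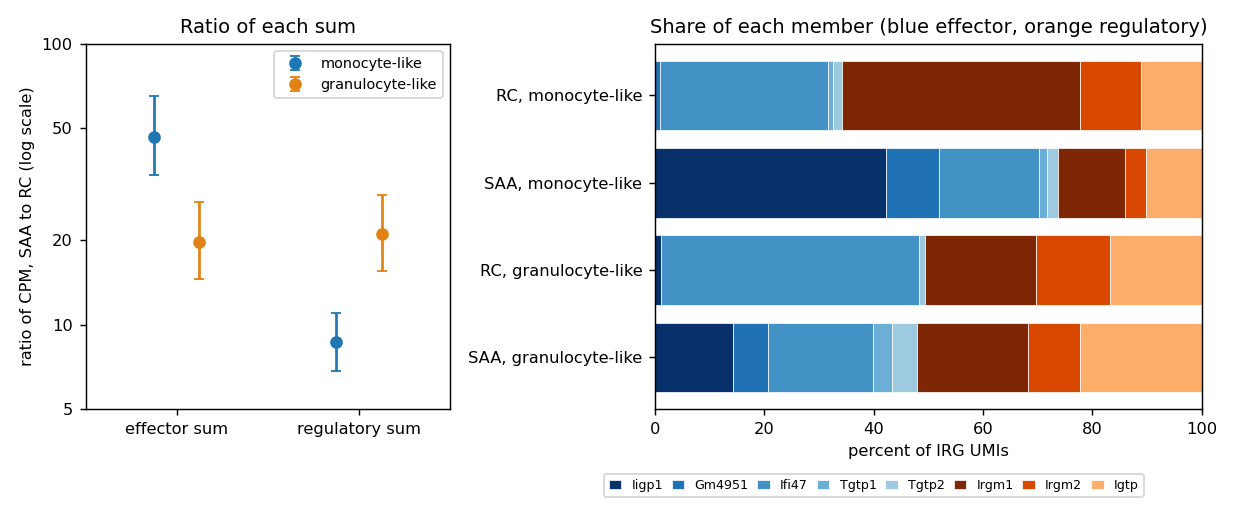
The left panel gives the SAA to RC ratio of CPM (log axis) for the effector and regulatory sums, with exact conditional 95% intervals, in monocyte-like (blue) and granulocyte-like cells (orange). The right panel gives the percent of IRG UMIs of each member per library and class. The ratios of both sums lie apart in monocyte-like cells (46.7 and 8.63) and close together in granulocyte-like cells (19.7 and 20.96), and Iigp1 fills 42.3% of the bar of SAA monocyte-like cells.

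Within the SAA library, both sums were lower in granulocyte-like than in monocyte-like cells, and the effectors by far more. The granulocyte-like to monocyte-like ratio of CPM was 0.254 (0.237 to 0.272) for the effector sum and 0.778 (0.715 to 0.846) for the regulatory sum. In ascending order it was 0.133 (0.118 to 0.149) for Iigp1, 0.253 (0.208 to 0.307) for Gm4951, 0.413 (0.367 to 0.466) for Ifi47 and 0.649 (0.570 to 0.738) for Irgm1. The intervals of these 4 members did not overlap with one another. The next were Tgtp2 at 0.838, Igtp at 0.850 (0.745 to 0.972), Tgtp1 at 0.965 and Irgm2 at 1.002 (0.809 to 1.24), which could not be ordered within counting error. The Tgtp pair thus stood with the regulators and apart from the other effectors.

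Free RNA and cells caught together can carry monocyte transcripts into granulocyte-like barcodes. The 5 monocyte genes, which define the classes, had a ratio of 0.0525 (0.0478 to 0.0575) in SAA as a sum and between 0.0389 and 0.0814 singly. All 8 members were above these values, although Iigp1 came closest. In RC the same genes were at 0.0156. The part that such RNA plays in the granulocyte-like level of Iigp1 was not tested.

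**Figure D3:**
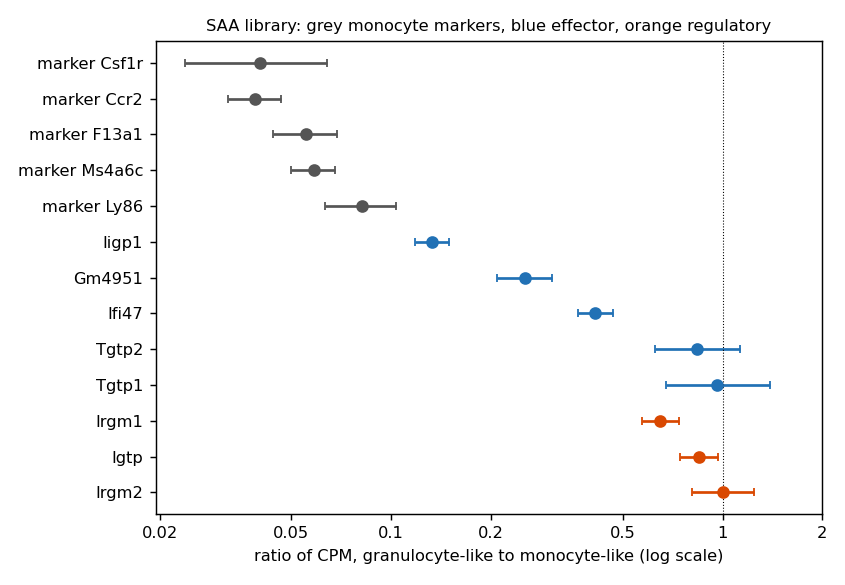
Granulocyte-like to monocyte-like ratio of CPM (log axis) in the SAA library for the 5 monocyte genes of the class rule (grey), the effectors (blue) and the regulators (orange), with exact conditional 95% intervals. Iigp1 at 0.133 lies nearest to the monocyte genes, and Tgtp1, Tgtp2, Igtp and Irgm2 lie between 0.838 and 1.002.

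Cells of SAA mice held more UMIs, so detection was compared after thinning each cell to 2600 UMIs. All thinned values per cell come from 1 draw, the first draw above. Thinning left out 76 RC and 18 SAA monocyte-like cells and 1 and 8 granulocyte-like cells. At this depth 92.5% (88.7 to 95.4) of SAA monocyte-like cells had an effector UMI, against 8.65% (5.56 to 12.7) in RC. A regulatory UMI was found in 67.4% (61.4 to 73.0) and 10.5% (7.11 to 14.9). The order was reversed in SAA granulocyte-like cells, where 46.5% (41.6 to 51.4) had an effector UMI and 56.7% (51.7 to 61.5) a regulatory UMI, and both shares were 3.15% in RC. Before thinning, the SAA shares were 96.8% and 86.3% in monocyte-like and 67.7% and 78.4% in granulocyte-like cells. For comparison, 7.02% of thinned SAA granulocyte-like cells had a UMI of the monocyte genes, at a median unthinned depth of 6849 UMIs. The shares of both arms were above that level. Tgtp1 (6.30%) and Tgtp2 (5.57%) taken singly were not, but such a share also depends on the level of a gene. In thinned SAA monocyte-like cells the monocyte genes were found in 98.9%, against 7.12% for Tgtp1 and 9.74% for Tgtp2.

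Both arms were usually found in the same SAA monocyte-like cell. At equal depth 63.7% (57.6 to 69.4) had both, 28.8% (23.5 to 34.7) an effector only and 3.75% (1.81 to 6.78) a regulator only. In SAA granulocyte-like cells 29.3% had both, 17.2% an effector only and 27.4% a regulator only. With Tgtp1 and Tgtp2 as 1 unit, a thinned SAA monocyte-like cell held a median of 3 of 7 units and a granulocyte-like cell 1, whereas 82.0% of RC monocyte-like and 93.7% of RC granulocyte-like cells held none. The few RC transcripts were not the product of a few cells, since 81 of 342 monocyte-like cells shared the 117 UMIs and the highest cell had 4. In SAA monocyte-like cells the median was 11 IRG UMIs per cell and the highest was 64. Across thinned SAA cells the effector and regulatory UMIs of a cell had a Pearson correlation of 0.16 over 267 monocyte-like and 0.22 over 413 granulocyte-like cells, all of 1 library, which is weak in counts this sparse.

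**Figure D4:**
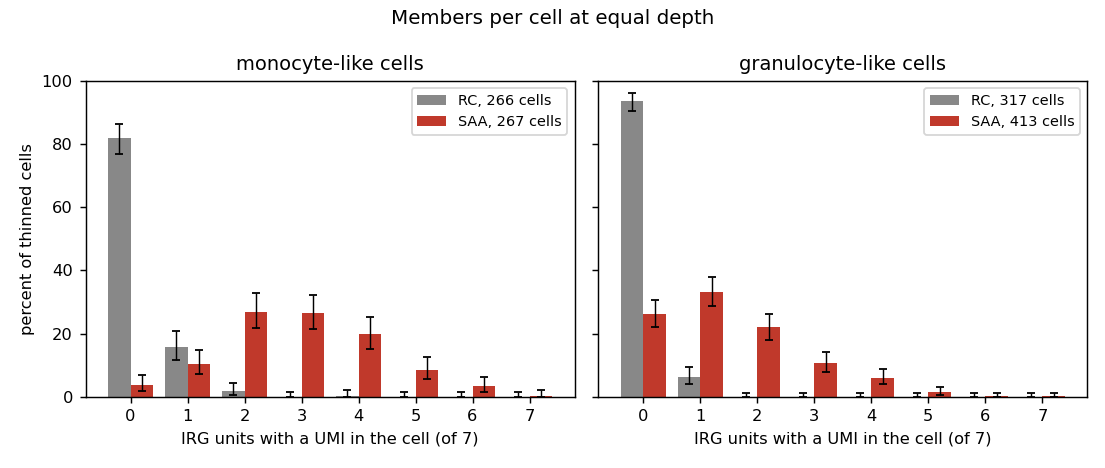
Percent of cells, thinned to 2600 UMIs, by the number of IRG units (of 7, with Tgtp1 and Tgtp2 as 1) that have a UMI, in RC (grey) and SAA (red), with exact Clopper-Pearson 95% intervals. Most RC cells are at 0 units (82.0% and 93.7%), and SAA monocyte-like cells centre on 2 to 4 units.

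Levels also varied within the classes of the SAA library. Granulocyte-like cells were divided by whether primary granule genes of early stages (Elane, Mpo, Prtn3 and Ctsg) exceeded secondary granule genes of later stages (Camp, Ngp, Ltf and Lcn2). The 31 early cells had an effector sum of 746.7 CPM (669.1 to 830.8) and the 389 late cells 285.9 CPM (266.6 to 306.2), a late to early ratio of 0.383 (0.337 to 0.436). The regulatory sum was 447.6 CPM (388.0 to 513.7) in early and 369.2 CPM (347.3 to 392.2) in late cells, a ratio of 0.825 (0.709 to 0.964). Regulators therefore made up 37.5% (33.4 to 41.7) of IRG UMIs in early and 56.4% (54.1 to 58.6) in late cells, so that early cells stood between the late cells and the monocyte-like class. Iigp1 differed most, with a late to early ratio of 0.194 (0.156 to 0.241), while the interval of Irgm2 (0.640 to 1.39) included 1. In RC both sums were also lower in late cells, 13.2 against 33.2 CPM for the effectors and 14.2 against 29.7 CPM for the regulators, on 52 and 36 IRG UMIs. The early cells of SAA were deeper, with a median of 12270 against 6601 UMIs in late cells. The early genes were also found in SAA monocyte-like cells, with 805 UMIs of Prtn3, 180 of Elane, 28 of Ctsg and 10 of Mpo. Doublets were not called, and the part of depth, of doublets or of cells with close class scores was not tested.

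Cycling cells, with at least 3 thinned UMIs of 10 cell cycle genes such as Mki67 and Top2a, had lower IRG levels than cells with none in the SAA library. In SAA monocyte-like cells the effector sum was 1130.0 CPM (1069.6 to 1193.0) in 127 cycling and 1872 CPM (1759 to 1990.0) in 99 other cells, a ratio of 0.604 (0.556 to 0.656). The regulatory ratio was 0.711 (0.618 to 0.818). In granulocyte-like cells the ratios were 0.546 (0.428 to 0.706) and 0.729 (0.558 to 0.969), with 331 cycling and 25 other cells. In RC monocyte-like cells the effector sum was 13.1 CPM in cycling and 52.9 CPM in other cells. In RC granulocyte-like cells all members together were at 30.7 CPM (23.2 to 39.8) in cycling and 29.0 CPM (11.7 to 59.8) in other cells, so the lower level was not seen there, on 56 and 7 UMIs. These divisions are ranges of a count and not cell types, and cycling cells were deeper, with a median of 8493 against 4778 UMIs in SAA monocyte-like cells.

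**Figure D5:**
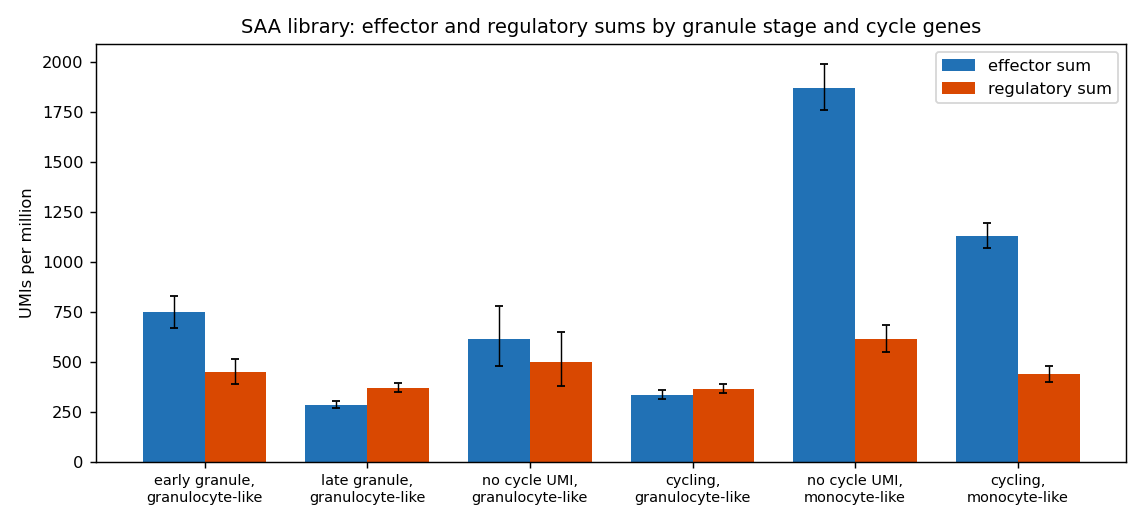
CPM of the effector sum (blue) and the regulatory sum (orange) in the SAA library, by granule stage and by cell cycle genes, with exact Poisson 95% intervals. The effector sum is 746.7 CPM in early and 285.9 CPM in late granule cells, and the regulatory sum lies between 365.4 and 615.3 CPM over all groups.

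The genes of the class rule also moved between the libraries. In monocyte-like cells the monocyte genes had an SAA to RC ratio of 0.650 (0.627 to 0.674), lowest for F13a1 at 0.363, and the granulocyte genes one of 1.498 (1.35 to 1.67), with Prtn3 at 2.54. In granulocyte-like cells the monocyte genes were at 2.19 (1.83 to 2.62) and the granulocyte genes at 0.769 (0.764 to 0.774). Their part in the IRG ratios was not tested.

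Other cells that the gate could hold were checked against the members. UMIs of 12 T and NK cell genes went from 5 to 577 in monocyte-like cells, and 7 receptor genes (Cd3e, Cd3g, Trac, Trbc1, Trbc2, Cd8a and Ncr1) were at 0 there in RC and had between 7 and 32 UMIs each in SAA. In granulocyte-like cells these 12 genes together had 1016 UMIs (409.7 CPM) in RC and 1149 (346.5 CPM) in SAA, of which 981 and 784 were of Nkg7. Barcodes with at least 2 UMIs of the receptor genes numbered 1 in RC and 40 in SAA, and these 40 had 464.8 IRG CPM (376.1 to 568.2). Of the 40, only 10 were monocyte-like and 8 granulocyte-like, and the rest were in neither class. Leaving these barcodes out, a choice made after seeing the data, could therefore change the class sums only little. Without them the log2 ratios in monocyte-like cells were 5.56 for the effectors and 3.12 for the regulators, against 5.55 and 3.11 with them. In granulocyte-like cells they were 4.31 and 4.40, against 4.30 and 4.39. Leaving out every barcode with at least 3 UMIs of the 12 genes moved the granulocyte-like values more, to 5.18 for the effectors and 4.71 for the regulators, and turned their difference from -0.09 to 0.47, which is within its interval. The monocyte-like values were again 5.56 and 3.12. B cell and erythroid genes had at most 30 UMIs in any class of either library. Among the gate genes, Itgam was detected in both classes of both libraries. Ly6c2 went from 2356 to 4725 CPM in monocyte-like cells (ratio 2.01) and from 1248 to 1782 CPM in granulocyte-like cells (ratio 1.43). Ly6g had 0 UMIs in RC and 8 in SAA monocyte-like cells but 340 and 444 in granulocyte-like cells (137.1 and 133.9 CPM), although cells had been sorted as Ly6G-. F1 hosts carry BALB/c alleles beside the B6 alleles of the donor. The gene counts used here do not record alleles, so donor and host cells were not told apart.

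The pathway that leads to IRG transcription was measured through 12 genes of interferon-γ signalling. In monocyte-like cells 5 of them were at least 2-fold higher and 1 was at or below 0.5 of the RC level, and in granulocyte-like cells 6 and 1. Over all genes 7.8% and 6.63% were at least 2-fold higher, and 8.67% and 5.12% at or below 0.5. The count of higher genes was thus above that background, and the count of lower genes near it. In each class 2 of the 12 genes were at least 8-fold higher, against 1.24% and 1.4% of all genes. Ifngr1, the ligand-binding receptor chain, was lower in SAA, with ratios of 0.386 (0.329 to 0.451) and 0.490 (0.418 to 0.573). Jak1, the kinase bound to that chain, had ratios of 0.773 (0.643 to 0.930) and 1.36 (1.17 to 1.59). Ifngr1 and Jak1 thus did not share the direction of the IRGs in monocyte-like cells. Jak2, another kinase of the list, was higher there, with a ratio of 2.08 (1.62 to 2.71). Of the 12 genes, 7 were higher and 5 lower in that class, with log2 ratios between -1.38 and 6.26.

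Autophagy proteins of the ATG8 conjugation machinery place IRGs and guanylate-binding proteins on vacuoles. Of 12 such genes, 0 were past 2-fold in either direction in monocyte-like cells, and 0 of 11 with enough UMIs in granulocyte-like cells. Over all genes 7.8% were higher and 8.67% lower by that limit in monocyte-like cells, and 6.63% and 5.12% in granulocyte-like cells, so few calls would be found in any list of this length. Gabarap, an ATG8 protein, had ratios of 0.932 (0.844 to 1.03) and 0.979 (0.889 to 1.08). Gabarapl2, another ATG8 protein, had ratios of 0.751 (0.620 to 0.911) and 0.837 (0.711 to 0.986). Atg3, the enzyme that attaches ATG8 proteins to lipid, had ratios of 1.002 (0.817 to 1.23) and 1.16 (0.971 to 1.39). The median log2 ratio of this list was -0.15 in monocyte-like and 0.09 in granulocyte-like cells, near the medians of all genes.

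Guanylate-binding proteins are the other large family of interferon-γ-induced GTPases at vacuoles, and 9 of 9 with at least 20 UMIs were past 2-fold in both classes. Over all genes 7.8% in monocyte-like and 6.63% in granulocyte-like cells were at least 2-fold higher. Their median log2 ratio was 5.46 in monocyte-like and 5.04 in granulocyte-like cells. Gbp2 had a ratio of 47.6 (31.0 to 77.1) in monocyte-like cells and Gbp7 16.6 (11.03 to 26.1), while Gbp4 had 0 UMIs in RC and 571 in SAA. Of other interferon-inducible GTPases, Mx1, an antiviral protein induced mainly by type I interferon, had a ratio of 1.23 (0.813 to 1.89) and Gvin1 1.07 (0.457 to 2.64) in monocyte-like cells. Gm4070, annotated beside Gvin1, was at 3.13 (1.66 to 6.41). In granulocyte-like cells Mx1 had 1 UMI in RC and 9 in SAA, a ratio of 6.73 (0.933 to 295). Gvin1 had 0 and 11 UMIs there, and Gm4070 had 4 and 47, a ratio of 8.79 (3.21 to 33.6).

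Rows of further IRG-like genes did not all behave alike. Gm4841 had 0 UMIs in RC and 113 in SAA monocyte-like cells, and F830016B08Rik 0 and 152, at least 25.2-fold and 33.9-fold higher against the floor, with exact lower limits of 20.2 and 27.3. In granulocyte-like cells they had 25 and 23 UMIs in SAA and again 0 in RC. In contrast, 9930111J21Rik2 was at 96.4 CPM (80.6 to 114.4) in RC and 85.8 CPM (73.5 to 99.5) in SAA monocyte-like cells, a ratio of 0.890 (0.705 to 1.12), and its ratio in granulocyte-like cells was 2.97 (1.96 to 4.62). Irgc1 and Irgq had at most 10 UMIs in any class of either library. In monocyte-like cells Gm5431 had a ratio of 1.49 (0.648 to 3.71) and 9930111J21Rik1 one of 1.34 (0.417 to 4.99). Gm12185 had 0 UMIs in RC and 18 in SAA there. In granulocyte-like cells Gm5431, 9930111J21Rik1 and Gm12185 had 0, 1 and 0 UMIs in RC and 1, 10 and 13 in SAA. The difference in SAA was therefore not shared by every row of the family in monocyte-like cells.

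The genes whose thinned UMIs were most like the summed IRG UMIs from cell to cell differed between the classes. Over 267 SAA monocyte-like cells they were Samhd1, Fcgr4, Cxcl9, Cxcl10 and Fam26f, with Pearson correlations of 0.34 to 0.24 among 2978 genes whose median was -0.01. Over 413 SAA granulocyte-like cells they were Gbp2, Gbp4, Gbp7, Gbp2b and Ifitm3, at 0.35 to 0.27 among 3830 genes with a median of 0.00. All cells of a comparison share a library, and correlations of this size in sparse counts are given as a description only.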

How the data were processed

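UMI counts per gene and barcode were used as deposited. The authors made these counts from Chromium 5′ libraries with Cell Ranger 6.0.1 against mm10, without normalization. The annotation release was not given in the sources used here, and the gene positions come from GENCODE M21 (GRCm38), matched by identifier. The members, gene lists and class rule were chosen with earlier results of these data known. Barcodes with at least 1000 genes were classed by the larger of both marker sums, and doublets were not called. Named were all members, further rows with IRG-family symbols, the 3 genes with most UMIs of each pathway list and the 5 genes most correlated with the IRG sum per class. For 1 gene chosen this way no value is reported here. A gene at 0 UMIs was set to a floor of 3 UMIs per class sum. Intervals (95%) were exact Poisson for CPM, Clopper-Pearson for shares, and exact conditional for ratios. Only the ratio intervals were tested, on simulated independent Poisson counts. They held the true ratio for 90% to 100% of genes at each simulated ratio. Such counts cannot show how the intervals behave where UMIs cluster in cells. UMIs of 1 cell are not independent, so the intervals are too narrow where few cells hold many. Analyses used Python 3.11.15, numpy 2.4.6, scipy 1.17.1, pandas 2.3.3 and matplotlib 3.10.9, and edgeR 4.0.16 under R 4.3.3 for TMM factors only. The alternatives changed the cell filter, class margin, T and NK barcodes, depth, scaling, weights of cells and members summed. The human data of the study were not used here.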

Additional observations from a re-analysis of the deposited data

Results flagged for a closer look

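Barcodes under 1000 detected genes entered the comparisons only in the alternative without a minimum of genes. In SAA, 96 such barcodes with a median of 1316 UMIs held 1309.5 IRG CPM (1126 to 1514), against 63.0 CPM (34.4 to 105.7) in 136 such barcodes of RC, which is a signal outside the main measurement above the control level. Regulators made up 36.8% (29.8 to 44.3) of the IRG UMIs of these SAA barcodes.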

How the results depend on the processing

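No paired analysis was possible because each group had 1 library. In 16 alternatives no ratio reversed among those whose interval excluded 1, and all 8 members stayed at least 2-fold higher in both classes wherever they were counted. Of 189 single-member values, 189 were above 0 on the log2 scale (lowest 2.47) and 12 left the interval of the first analysis. For the sums and shares, these values left it. With at least 1500 genes and at most 10% mitochondrial UMIs, the log2 ratio of the effectors in monocyte-like cells was 6.09 in place of 5.55. In cells thinned to 1 depth it was 4.96, that of the regulators 3.54 in place of 3.11, their difference 1.42 in place of 2.44, and the regulatory shares 50.8% in RC and 27.8% in SAA. The difference lay between 1.80 and 2.34 in the 20 further draws. In the same cells without thinning it was 2.23, within its interval. In thinned granulocyte-like cells the log2 ratio of the regulators was 4.94 in place of 4.39. Without Iigp1 the effector log2 ratio was 4.32 and the difference 1.21 in monocyte-like cells, with a regulatory share of 45.5% in SAA, and in granulocyte-like cells 3.82 in place of 4.30 and 60.9%. The regulatory share of SAA granulocyte-like cells was 55.4% with class scores at least 4 times apart and 56.6% without Tgtp1 and Tgtp2, in place of 52.1%. Without barcodes of at least 3 UMIs of T or NK genes, the effector log2 ratio of granulocyte-like cells was 5.18. That rule took 97 RC and 114 SAA barcodes, 96 and 82 of them granulocyte-like. Apart from the removal of members, which acts by construction, the cause of these differences was not tested. RC sums of 40 to 77 UMIs limit every ratio, and differences between mice cannot be seen.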
